A study of Mus musculus with 22 samples.

Results

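The prolactin and growth hormone receptor genes, the kinase and STAT5 factors that carry their signal, its feedback inhibitors and 2 transcription factor genes that it controls in liver were followed in maternal mouse liver. The 10 genes were chosen by symbol: Prlr, Ghr, Jak2, Stat5a, Stat5b, Socs2, Socs3, Cish, Bcl6 and Cux2. All 10 were found among the 53392 rows of the count table, and all 10 were among the 15928 genes that passed the low-count filter. RNA was sequenced from whole liver of 22 female C57BL/6 mice, with 1 library per mouse. The groups were 5 germ-free pregnant, 6 germ-free non-pregnant, 5 conventional pregnant and 6 conventional non-pregnant mice. Germ-free mice are raised without microorganisms, whereas conventional mice carry an ordinary microbiota. All groups had the same autoclaved chow, water and bedding. Pregnant livers were taken at gestation day 15. In conventional mice, mated overnight at 8 weeks of age, the day of that mating was day 0. In germ-free mice, mated for 72 h at 11 to 15 weeks of age, day 0 was assumed to be day 2 of the mating. The age labels, whose unit is not given, were 91 to 121 in germ-free pregnant, 92 to 105 in germ-free non-pregnant and 70 to 77 in both conventional groups. Microbiota status, age and certainty of gestation day therefore cannot be told apart.

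Prolactin, the placental lactogens and growth hormone act through single-pass cytokine receptors that have no kinase of their own. The bound receptor activates the kinase JAK2, which phosphorylates STAT5A and STAT5B, and these move to the nucleus and bind DNA. Among the genes STAT5 switches on are those of the inhibitors SOCS2, SOCS3 and CIS (gene Cish), which damp the receptor signal. In rodent liver the pattern of growth hormone release, pulsed in males and more continuous in females, sets many sex differences in expression. CUX2, raised in female liver, and BCL6, raised in male liver, are transcription factors that carry part of that pattern.

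STAT5 dimers recognise the palindrome TTCNNNGAA, which reads the same on both strands. It was searched in RefSeq promoter windows of GRCm38.p6 that run from 250 bases before to 50 bases after a start. The palindrome was present in 8.30% of all 32851 windows. Of the 10 genes 9 had a window, and 4 of these 9 had the palindrome in at least 1 of their windows, against 9.55% of 27025 genes. The 9 genes held 8 matches in 5 of 16 windows. They have more windows per gene than all genes do, and a gene with several windows has more chances of a match. The windows below show how the matches lie in the receptor gene that rose most and in the feedback and target genes with a match, with the palindromes in capitals. They are the 250 bases before a start of Prlr (chr15:10223656-10223905, plus strand), of Bcl6 (chr16:23981284-23981533, minus strand) and of Socs3 (chr11:117969367-117969616, minus strand). For Cish the stretch from 100 bases before to 30 bases after the start is shown (chr9:107296559-107296688, plus strand).
Prlr: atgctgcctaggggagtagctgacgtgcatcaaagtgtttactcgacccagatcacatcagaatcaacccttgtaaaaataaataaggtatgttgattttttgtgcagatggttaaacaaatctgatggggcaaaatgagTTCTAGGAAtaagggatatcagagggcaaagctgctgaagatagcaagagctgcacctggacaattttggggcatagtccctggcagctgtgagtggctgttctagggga
Bcl6: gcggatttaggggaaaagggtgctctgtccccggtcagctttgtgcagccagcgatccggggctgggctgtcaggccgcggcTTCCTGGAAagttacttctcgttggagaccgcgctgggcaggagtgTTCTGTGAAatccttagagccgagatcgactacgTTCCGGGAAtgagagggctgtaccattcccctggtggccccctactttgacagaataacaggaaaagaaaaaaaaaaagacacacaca
Socs3: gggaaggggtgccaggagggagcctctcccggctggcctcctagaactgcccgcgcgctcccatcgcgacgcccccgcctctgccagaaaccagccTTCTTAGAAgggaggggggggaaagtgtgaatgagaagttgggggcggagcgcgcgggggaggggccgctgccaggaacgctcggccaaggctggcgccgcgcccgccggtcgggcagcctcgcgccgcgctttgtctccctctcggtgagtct
Cish: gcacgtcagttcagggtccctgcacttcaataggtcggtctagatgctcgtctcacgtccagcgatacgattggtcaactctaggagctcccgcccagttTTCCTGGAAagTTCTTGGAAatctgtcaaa
In Bcl6 the 3 palindromes shown began 168, 122 and 88 bases before a start inside the gene. The other Bcl6 window, chr16:23988803-23989102, which spans the annotated gene start, held 1 more. In Cish both lay just inside the transcript, at bases 1 and 12. The single palindrome of Prlr began 110 bases before a start inside the gene, and that of Socs3 154 bases before a start. The starts used for Socs3 and Cish also lay inside the annotated genes. The other Prlr windows, chr15:10176988-10177287, which spans the annotated gene start, and chr15:10293401-10293700, held none. The windows of Ghr, Jak2, Stat5a, Stat5b and Cux2 held none, which says only that these letters are not in those windows. A match of letters is not a measured binding site.

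Library totals were 18064491 to 30036912 estimated counts. Levels are given as CPM, which are counts scaled to an effective library of 1e+06 counts. Comparisons come from 1 edgeR quasi-likelihood fit of all 22 libraries, and a gene was called at a Benjamini-Hochberg adjusted p under 0.05 over the 15928 genes tested. The hepatocyte genes on the marker list together made up 62144 to 253536 CPM of a library. Among the 22 libraries, conventional pregnant mouse 2 stood apart. The acute phase genes Saa1 and Saa2 had 2049 and 2156 CPM there, whereas the highest values among the remaining 21 libraries were 62.2 and 43.5 CPM. Its summed macrophage, neutrophil and T and NK cell markers were also the highest of all libraries, at 1267, 37.4 and 40.5 CPM. Mki67, a gene of dividing cells, had 63.4 CPM in this mouse and at most 13.1 CPM in the remaining 21 libraries. For several results, values without this mouse are given beside them.

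The hormone genes themselves were all but silent in liver RNA. None of 7 genes for growth hormone, prolactin and placental members of the prolactin family passed the low-count filter. The highest level in any library was 2.28 CPM, of the placental lactogen gene Prl3b1 in a germ-free non-pregnant liver. Pregnant libraries held no more than 10 counts of any of these genes in a group of 5 mice.

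Both receptor genes were several-fold higher in pregnant than in non-pregnant livers, in germ-free and in conventional mice. Prlr, the receptor for prolactin and placental lactogens (chromosome 15, 10177238 to 10349180, plus strand, GENCODE M21 on GRCm38), had 1553, 2259, 2218, 1657 and 2005 CPM in germ-free pregnant livers. In germ-free non-pregnant livers its lowest, median and highest levels were 148, 244 and 308 CPM. Every germ-free pregnant liver was thus above every germ-free non-pregnant liver, by a wide gap. Prlr had 928, 646, 2073, 1794 and 1870.3 CPM in conventional pregnant livers, against a lowest of 187, a median of 216 and a highest of 303 CPM in conventional non-pregnant livers. The conventional groups did not overlap either, although mice 1 and 2 were well below the other 3 pregnant mice. The log2 fold change was 3.02 ± 0.26 in germ-free mice (SE, 8.10-fold, adjusted p 3.94e-08) and 2.69 ± 0.26 in conventional mice (SE, 6.45-fold, adjusted p 2.01e-07).

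Ghr lies on the same chromosome (3317760 to 3583492, minus strand). In mice this gene yields both the growth hormone receptor and, by an alternative transcript, the soluble growth hormone binding protein, and counts per gene do not separate them. Ghr had 2044, 3087, 2801, 2149 and 2606 CPM in germ-free pregnant livers, against a lowest of 293, a median of 315 and a highest of 382 CPM in germ-free non-pregnant livers. In conventional pregnant livers it had 860.1, 542, 2783, 2365 and 2291 CPM, against 277, 333 and 418 CPM as lowest, median and highest in conventional non-pregnant livers. As for Prlr, neither pair of groups overlapped, and conventional pregnant mice 1 and 2 were the lowest of the 10 pregnant mice. The log2 fold change was 2.95 ± 0.30 in germ-free mice (7.73-fold, adjusted p 3.34e-07) and 2.40 ± 0.29 in conventional mice (5.28-fold, adjusted p 5.76e-06). The plot of receptor levels by library shows the gap in both kinds of mice.

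**Figure D1:**
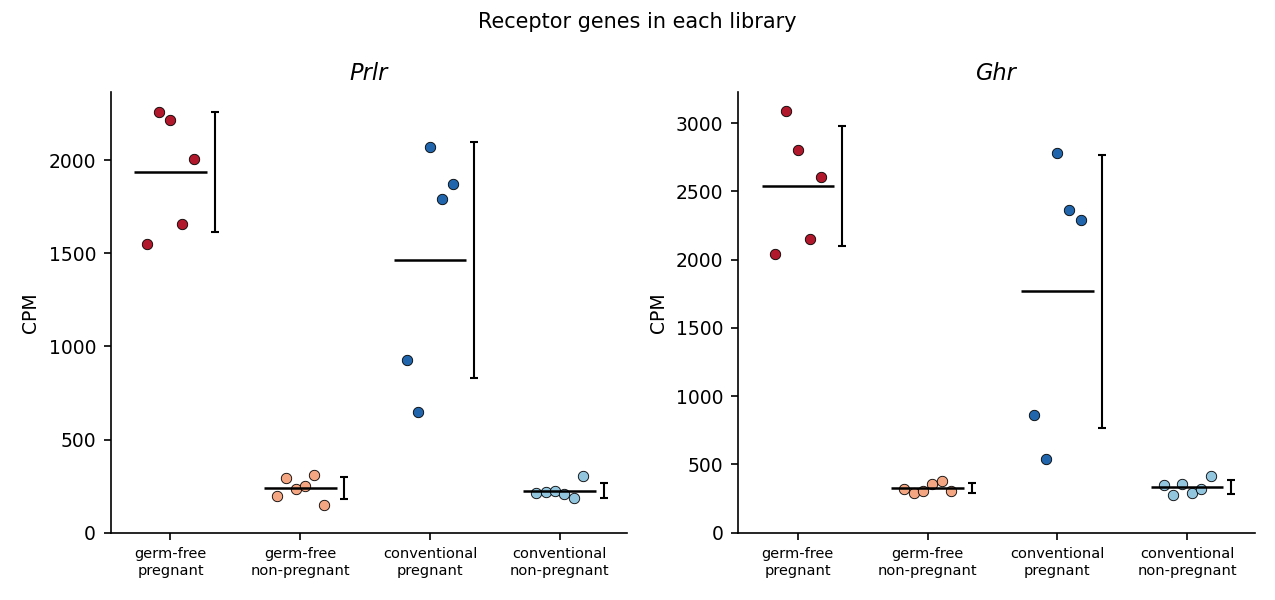
Levels of Prlr and Ghr in CPM on a linear axis, by group, with 1 point per mouse, the group mean as a horizontal line and ± 1 SD as the bar beside it. All pregnant mice sit above all non-pregnant mice of their kind, and 2 conventional pregnant mice (Prlr 928 and 646 CPM) sit between the other pregnant and the non-pregnant mice.

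In order of mean level, Prlr averaged 1938 ± 322 CPM in germ-free pregnant, 1462 ± 633 in conventional pregnant, 239 ± 60.6 in germ-free non-pregnant and 227 ± 39.6 in conventional non-pregnant livers (SD, n = 5, 5, 6 and 6). Ghr averaged 2538 ± 439, 1768 ± 998, 328 ± 35.0 and 335 ± 50.6 CPM in the same groups. The pregnant groups did not differ beyond their spread in either gene, and neither did the non-pregnant groups. Germ-free over conventional, the log2 difference in pregnant mice was 0.41 ± 0.26 for Prlr (adjusted p 0.597, edgeR) and 0.52 ± 0.29 for Ghr (adjusted p 0.543). In non-pregnant mice it was 0.08 ± 0.24 for Prlr (95% interval -0.41 to 0.57) and -0.03 ± 0.27 for Ghr (-0.58 to 0.53).

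The low receptor levels of conventional pregnant mice 1 and 2 went with their age label, which was 70 in these mice and 77 in the other 3. Among mice labelled 70, Prlr averaged 787 CPM in 2 pregnant and 257 CPM in 2 non-pregnant mice, a ratio of 3.06. Among mice labelled 77, it averaged 1912 CPM in 3 pregnant and 211 CPM in 4 non-pregnant mice, a ratio of 9.05. For Ghr the ratios were 1.83 at label 70 and 7.98 at label 77. Pregnant mice were above non-pregnant mice at both labels, and whether the ratios differ was not tested. These values were set side by side after the data were seen. With mice 1 and 2 left out, the conventional log2 fold change was 3.03 for Prlr and 2.84 for Ghr. The erythroid gene Alas2, which encodes the heme synthesis enzyme of red cell precursors, had 13.6 and 24.7 CPM in mice 1 and 2 and 35.0 to 53.8 CPM in the other 3 conventional pregnant mice.

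Prlr and Ghr also varied together from mouse to mouse. After removal of the group means, the correlation of their log2 CPM over the 22 livers was r = 0.871 (permutation p 0.00015, two-sided, 0.00675 adjusted over 45 pairs of the 10 genes) and rho = 0.831 (permutation p 0.00041, adjusted 0.0185). Without the 2 livers farthest from the median of Prlr, r was 0.859. Without conventional pregnant mouse 2, r over 21 livers was 0.777 (permutation p 0.00071, adjusted 0.032), and 0.717 after its 2 farthest livers were also left out. Both values share their library and its scaling. No other of the 45 pairs passed the adjusted threshold, and the next, Jak2 with Stat5a, had r = 0.625 (permutation p 0.00429, adjusted 0.0965), with rho = 0.615. The ratio of Ghr to Prlr CPM, which is not corrected for gene length, was 1.31 ± 0.0378 in germ-free pregnant and 1.45 ± 0.378 in germ-free non-pregnant livers. It was 1.13 ± 0.232 in conventional pregnant and 1.49 ± 0.174 in conventional non-pregnant livers (SD). The lowest ratios of any library, 0.840 and 0.927, were those of conventional pregnant mice 2 and 1.

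**Figure D2:**
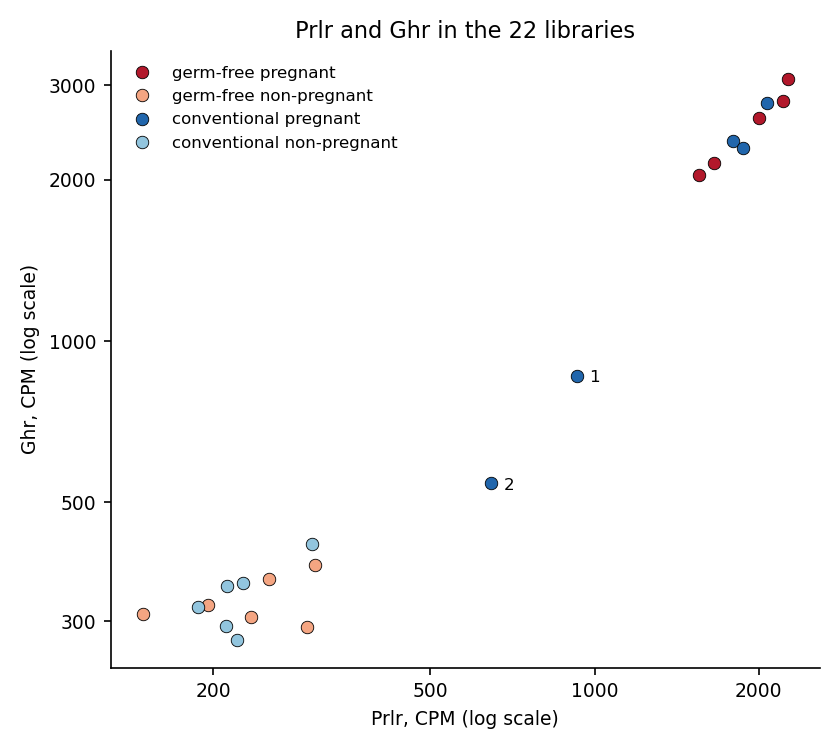
Ghr against Prlr in CPM in the 22 livers, both axes logarithmic, coloured by group, with conventional pregnant mice 1 and 2 numbered. The 12 non-pregnant livers form 1 cloud and 8 pregnant livers another, and mice 1 (928 and 860.1 CPM) and 2 (646 and 542 CPM) lie between them.

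Of 8695 other genes with an official symbol and a mean of at least 5 CPM, Ghr was the most like Prlr over the 22 livers, and Prlr the most like Ghr. Likeness was the root mean square difference of log2 CPM after centring each gene, and it was 0.28 between the 2 receptors. The next most like Prlr were Aldh1a7, an aldehyde dehydrogenase gene (0.31), Itih4, an inter-alpha-trypsin inhibitor chain (0.33), Cp, which encodes ceruloplasmin (0.37), and Tead2, a transcription factor of the Hippo pathway (0.43). Those after Prlr in likeness to Ghr were Itih4 (0.32), Tead2 (0.38), Necab1, a calcium-binding protein gene (0.40), and Cp (0.41). All 5 of these genes were called higher in pregnancy in both kinds of mice, with log2 fold changes of 2.29 to 3.26 in germ-free and 2.17 to 2.98 in conventional mice. Like the receptors, each of the 5 was lower in conventional pregnant mice 1 and 2 than in mice 3 to 5 of that group. Itih4, for instance, had 2629 and 3920 CPM in mice 1 and 2, against 7168 to 10061 CPM in mice 3 to 5. The 5 genes were chosen for their likeness, so these changes and levels are a description.

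Jak2, the kinase that both receptors use, and the STAT5 genes did not pass the test in either pregnancy comparison. Jak2 averaged 8.99 ± 0.827 CPM in germ-free pregnant and 8.23 ± 0.993 in germ-free non-pregnant livers, and 10.6 ± 1.72 in conventional pregnant and 9.60 ± 1.21 in conventional non-pregnant livers (SD). Its log2 fold change was 0.13 in germ-free mice (95% interval -0.14 to 0.39) and 0.15 in conventional mice (-0.11 to 0.41). Those intervals exclude changes of the size seen for the receptors. Stat5b, the STAT5 form with the larger role in growth hormone signalling in mouse liver, averaged 30.7 ± 6.49 CPM in germ-free pregnant and 35.7 ± 4.47 in germ-free non-pregnant livers. It averaged 34.4 ± 12.0 CPM in conventional pregnant and 35.5 ± 7.84 in conventional non-pregnant livers. The log2 fold change of Stat5b was -0.22 in germ-free mice (-0.60 to 0.16) and -0.04 in conventional mice (-0.42 to 0.33).

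Stat5a, its close relative and neighbour on chromosome 11, averaged 5.00 ± 1.71 CPM in germ-free pregnant and 6.84 ± 1.89 in germ-free non-pregnant livers. It averaged 8.68 ± 3.33 CPM in conventional pregnant and 8.45 ± 1.40 in conventional non-pregnant livers. Its log2 fold change with pregnancy was -0.45 in germ-free mice (-0.98 to 0.08, adjusted p 0.293, edgeR) and 0.04 in conventional mice (-0.47 to 0.55). Germ-free over conventional pregnant livers, Stat5a had a log2 difference of -0.79 ± 0.26, with an unadjusted p of 0.0062 that did not pass adjustment (0.303, edgeR). With conventional pregnant mice 1 and 2 left out, the Stat5a change in conventional mice turned to -0.44 (adjusted p 0.434). Estimated counts divide shared reads between such similar genes, so the split between Stat5a and Stat5b is uncertain. A small part of the Stat5a exons (1.01%) also overlaps Stat3 on the other strand, and this kit does not mark strand.

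The feedback genes had no called change in either pregnancy comparison. Socs2, which targets the growth hormone receptor for degradation, had 39.9, 66.1, 109, 65.9 and 59.8 CPM in germ-free pregnant livers, against a lowest of 21.8, a median of 35.6 and a highest of 104 CPM in germ-free non-pregnant livers. In conventional pregnant livers it had 39.3, 149.7, 63.6, 73.9 and 114 CPM, against 20.6, 36.7 and 62.8 CPM as lowest, median and highest in conventional non-pregnant livers. The groups overlapped in both kinds of mice, and the pregnant median was the higher one in both. Its log2 fold change was 0.56 ± 0.40 in germ-free mice (adjusted p 0.429) and 1.19 ± 0.40 in conventional mice (adjusted p 0.0664), both from edgeR. DESeq2 put the conventional change of 1.17 past the threshold (adjusted p 0.0284), as did edgeR without conventional pregnant mouse 1 (0.0322), conventional non-pregnant mouse 1 (0.0458) or germ-free non-pregnant mouse 2 (0.0340).

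Socs3, an inhibitor that is also induced by interleukin-6 through STAT3, had 7.03, 5.29, 3.63, 6.82 and 2.83 CPM in germ-free pregnant livers, against a lowest of 4.88, a median of 6.92 and a highest of 12.5 CPM in germ-free non-pregnant livers. In conventional pregnant livers it had 4.64, 54.5, 7.28, 4.49 and 3.71 CPM, against 3.94, 6.62 and 8.25 CPM as lowest, median and highest in conventional non-pregnant livers. Only conventional pregnant mouse 2 was high, and all other livers overlapped. The conventional log2 fold change of 1.18 ± 0.52 (adjusted p 0.174, edgeR) turned to -0.39 without that mouse (adjusted p 0.533). In germ-free mice the change was -0.58 ± 0.53 (adjusted p 0.557). The part of the acute phase response of mouse 2, or of its inflammatory cell markers, in its Socs3 level was not tested.

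Cish, whose product CIS competes with STAT5 for the receptor, averaged 15.2 ± 2.95 CPM in germ-free pregnant and 16.9 ± 9.19 in germ-free non-pregnant livers. It averaged 22.0 ± 5.10 CPM in conventional pregnant and 16.3 ± 10.7 in conventional non-pregnant livers. The log2 fold change was -0.16 in germ-free mice (95% interval -0.97 to 0.65) and 0.42 in conventional mice (-0.38 to 1.23), so that a change of either sign was within the interval. The spread was larger in non-pregnant livers, which ran from 6.04 to 31.3 CPM in germ-free and from 4.50 to 33.7 CPM in conventional mice. Antisense genes on the other strand overlap 7.46% and 4.07% of the Cish exons.

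**Figure D3:**
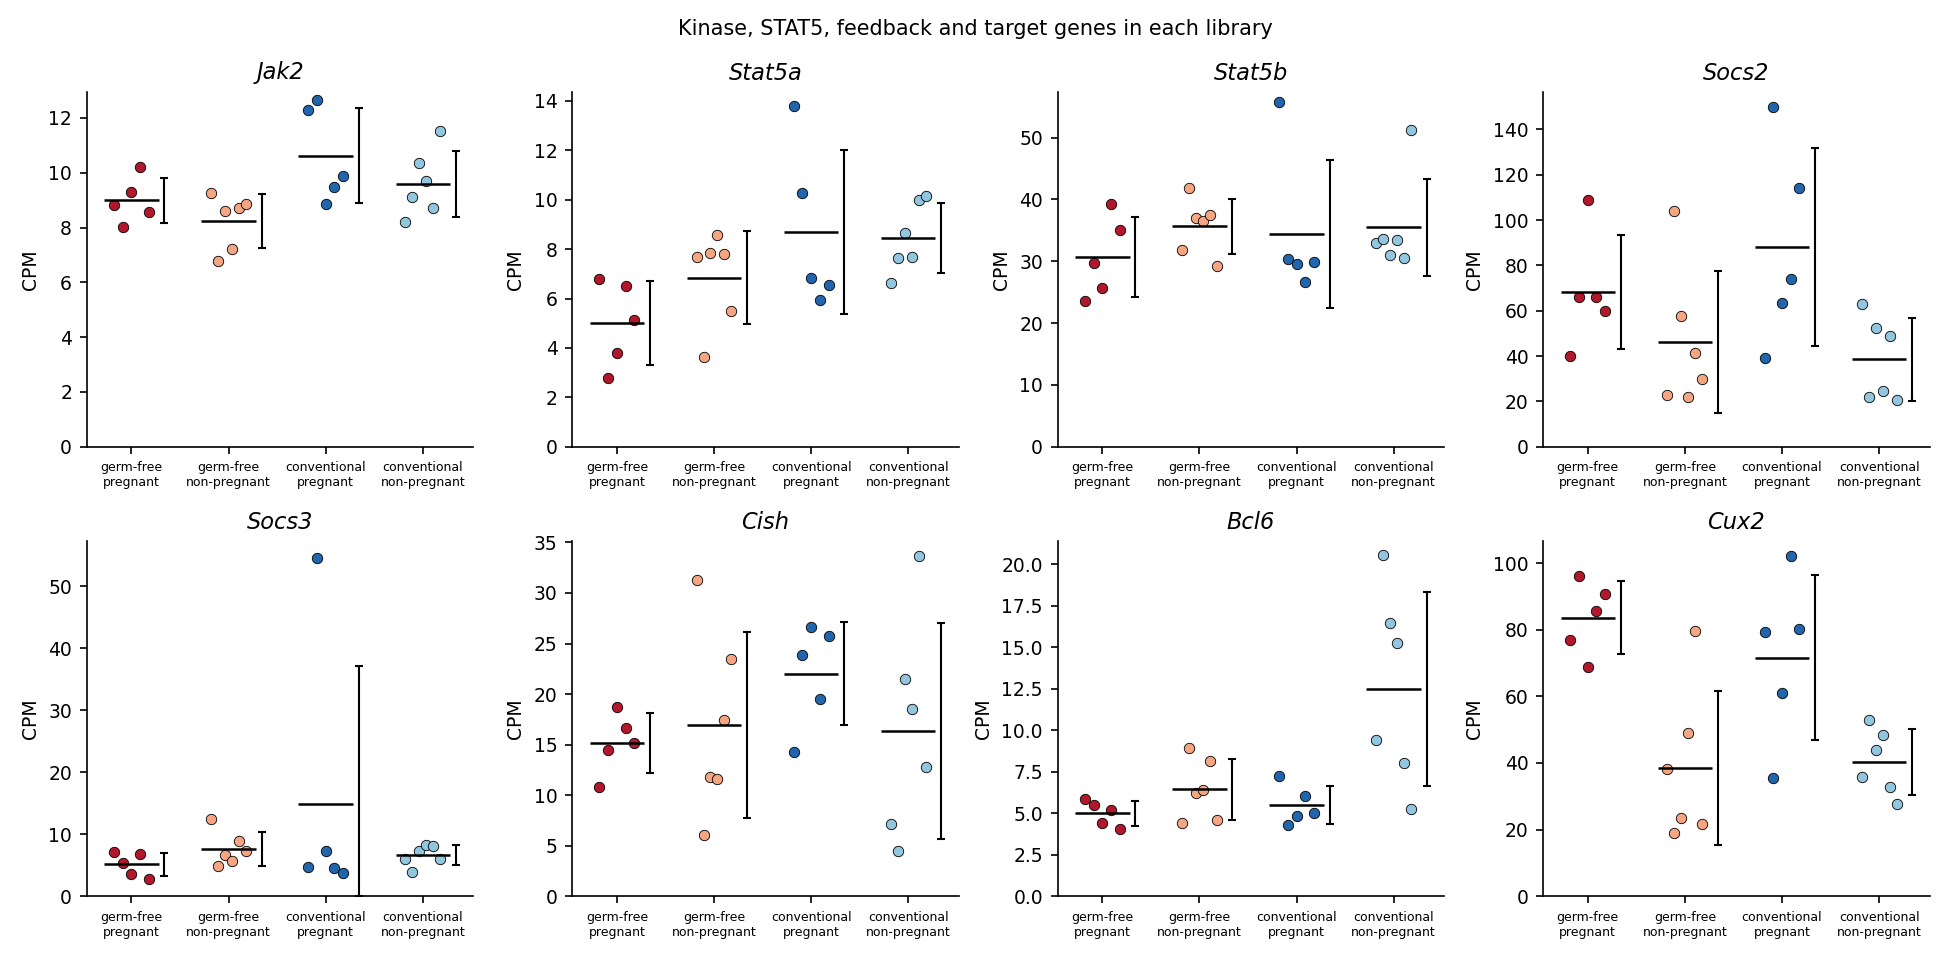
Levels of the other 8 genes in CPM on linear axes that start at 0, by group, with 1 point per mouse, the mean as a line and ± 1 SD as a bar, cut at 0 for Socs3 in conventional pregnant mice. The single high Socs3 point is conventional pregnant mouse 2 (54.5 CPM), Cux2 is higher in most pregnant mice, and Bcl6 is highest and most spread in conventional non-pregnant mice.

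The target genes moved in opposite directions. Cux2, a transcription factor that represses male-biased genes in female mouse liver (chromosome 5, 121856366 to 122050102, minus strand), had 76.8, 96.3, 69.0, 85.7 and 90.8 CPM in germ-free pregnant livers. In germ-free non-pregnant livers its lowest, median and highest levels were 19.0, 30.9 and 79.7 CPM. Germ-free non-pregnant mouse 5 alone reached the pregnant range. Cux2 had 79.3, 35.6, 61.0, 102 and 80.3 CPM in conventional pregnant livers, against 27.6, 39.9 and 53.0 CPM as lowest, median and highest in conventional non-pregnant livers. All conventional pregnant mice but mouse 2 were above the non-pregnant range. Cux2 rose in germ-free mice, by 1.12 ± 0.30 on the log2 scale (2.17-fold, adjusted p 0.0167, edgeR). In conventional mice the value was 0.83 ± 0.30 and missed the threshold (adjusted p 0.0873). It passed without conventional pregnant mouse 2 (1.00, adjusted p 0.0401) and without germ-free non-pregnant mouse 5 (adjusted p 0.0391), but not without conventional pregnant mice 1 and 2 together (0.97, adjusted p 0.0829).

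Bcl6, a transcriptional repressor that is higher in male than in female mouse liver (chromosome 16, 23965052 to 23988852, minus strand), had 5.87, 5.48, 4.42, 5.18 and 4.03 CPM in germ-free pregnant livers. In germ-free non-pregnant livers its lowest, median and highest levels were 4.38, 6.30 and 8.93 CPM. It had 7.26, 4.29, 4.84, 6.03 and 5.02 CPM in conventional pregnant livers, against 9.43, 20.6, 16.4, 15.2, 8.01 and 5.27 CPM in conventional non-pregnant mice 1 to 6. Only conventional non-pregnant mouse 6 was within the pregnant range. Bcl6 fell in conventional mice, with a log2 fold change of -1.18 ± 0.27 (adjusted p 0.00696, edgeR), and its value in germ-free mice was -0.37 ± 0.27 (adjusted p 0.446). By age label, Bcl6 averaged 5.77 CPM in pregnant and 7.35 CPM in non-pregnant conventional mice labelled 70, a ratio of 0.79. In those labelled 77 it averaged 5.29 and 15.1 CPM, a ratio of 0.35, and whether the ratios differ was not tested. Among non-pregnant mice its germ-free over conventional log2 difference was -0.96 ± 0.26, which did not pass adjustment in edgeR (unadjusted p 0.00107, adjusted 0.178) and did in DESeq2 (adjusted p 0.0469).

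Over the 10 genes, 3 were called in germ-free pregnancy (Prlr, Ghr and Cux2, all higher), where 10.8% of all tested genes were called, 7.15% higher and 3.6% lower. In conventional pregnancy 3 were called (Prlr and Ghr higher, Bcl6 lower), where 9.02% of all tested genes were, 5.49% higher and 3.52% lower. The groups did not overlap for 2 of the 10 genes in each comparison, Prlr and Ghr, against 8.47% of all genes in germ-free and 4.96% in conventional mice. The 10 genes and the gene lists below were chosen with earlier results of these data known. Their counts beside those of all genes are thus a description. The median log2 fold change of the 10 genes was -0.02 in germ-free and 0.63 in conventional mice, and -0.02 and 0.04 over all genes. The conventional median was 0.23 without pregnant mouse 2 and 0.21 without pregnant mice 1 and 2.

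The comparison of germ-free with conventional mice called none of the 10 in pregnant mice, where 0.132% of all genes were called, and none in non-pregnant mice, where 0.157% were. At an unadjusted p under 0.05 edgeR gave 2 of the 10 in pregnant mice (Stat5a and Socs3), against 10.5% of all genes, and 1 in non-pregnant mice (Bcl6), against 6.01%. DESeq2 called 0 of the 10 in pregnant and 1 in non-pregnant mice. None of the 10 had groups without overlap, against 1.1% of all genes in pregnant and 0.797% in non-pregnant mice. Socs3 had a log2 difference of -1.55 ± 0.56 in pregnant mice (unadjusted p 0.0109, adjusted 0.336), which was 0.02 without conventional pregnant mouse 2.

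Whether pregnancy changed a gene by a different amount in germ-free than in conventional mice was tested by the interaction, and edgeR called 0 of the 10 and 0% of all genes. At an unadjusted p under 0.05 it gave 903 genes, 5.67% of those tested, and DESeq2 called 7. Among the 10 genes Socs3 (-1.76 ± 0.75, p 0.027) and Bcl6 (0.82 ± 0.38, p 0.0435) were under 0.05 before adjustment, with adjusted p 0.863 for both, and DESeq2 called none. The germ-free minus conventional difference in log2 fold change was 0.33 for Prlr (95% interval -0.40 to 1.05), 0.55 for Ghr (-0.28 to 1.37) and 0.29 for Cux2 (-0.60 to 1.17). The call of Cux2 in germ-free mice and that of Bcl6 in conventional mice are therefore not shown to be differences between the kinds of mice.

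**Figure D4:**
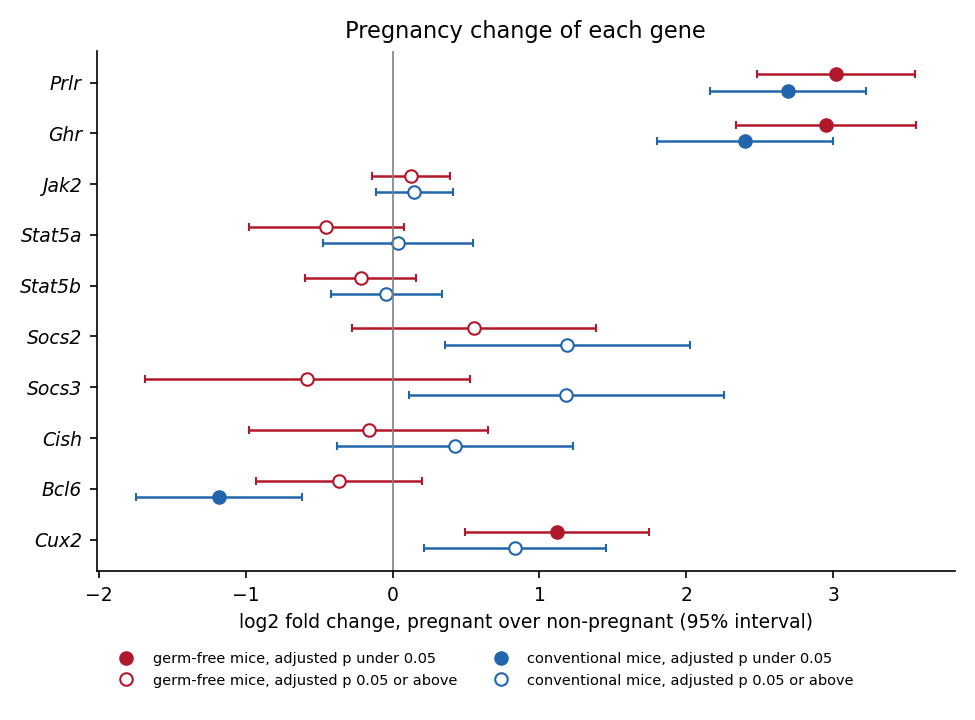
Log2 fold change of the 10 genes, pregnant over non-pregnant, in germ-free (upper mark of each pair) and conventional mice (lower mark), with 95% intervals and with filled marks where the adjusted p was under 0.05. Prlr and Ghr lie between 2.40 and 3.02, and all other genes lie between -1.18 and 1.19.

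The mean of both pregnancy changes was added after seeing that no interaction was called. In this comparison 5 of the 10 genes were called, 4 higher and 1 lower, against 20.2% of all genes (11.8% higher and 8.39% lower). All 10 pregnant livers lay outside the range of all 12 non-pregnant livers for 2 of the 10 genes, Prlr and Ghr, against 1.61% of all genes. Prlr (2.85 ± 0.18), Ghr (2.68 ± 0.21), Cux2 (0.98 ± 0.21, adjusted p 0.00174) and Socs2 (0.87 ± 0.28, adjusted p 0.0311) rose, and Bcl6 (-0.78 ± 0.19, adjusted p 0.00533) fell, all from edgeR. The Socs2 call is the least firm of these. It was lost when any 1 of 7 mice was left out (adjusted p up to 0.0732), namely conventional pregnant mouse 2 or 5, conventional non-pregnant mouse 2 or 4, germ-free pregnant mouse 3, or germ-free non-pregnant mouse 1 or 6. Without conventional pregnant mouse 2 the Socs2 value was 0.74, and without germ-free pregnant mouse 3 it was 0.76.

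Among 7 tested genes for other JAK kinases and STAT factors, 1 was called in germ-free pregnancy and 2 in conventional pregnancy, all higher. By comparison, 7.15% of all tested genes were called higher in germ-free and 5.49% in conventional pregnancy. Stat3, the STAT of the interleukin-6 and leptin pathways, averaged 81.2 ± 14.6 CPM in germ-free pregnant and 46.4 ± 2.98 in germ-free non-pregnant livers, a log2 fold change of 0.81 ± 0.18 (adjusted p 0.00363). It averaged 82.0 ± 10.4 CPM in conventional pregnant and 49.5 ± 18.6 in conventional non-pregnant livers, a change of 0.73 ± 0.18 (adjusted p 0.0105). Without mice 1 and 2 the conventional Stat3 change was 0.56 and missed the threshold (adjusted p 0.114). Tyk2, a JAK family kinase, was called in conventional mice at 0.42 ± 0.13 (adjusted p 0.0488) and missed the threshold without conventional pregnant mouse 2 at a similar value (0.39, adjusted p 0.108).

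A list of 21 further inhibitors and related genes, which also holds the leptin receptor gene, had 2 called in each comparison. That was close to the share of all tested genes called, 10.8% in germ-free and 9.02% in conventional pregnancy. Ptpn1, a phosphatase that removes phosphate from JAK2, rose by 0.69 ± 0.21 in germ-free mice (adjusted p 0.0316) and by 0.69 ± 0.20 in conventional mice (0.0344). In conventional mice the value without pregnant mouse 2 was 0.35 and missed the threshold (0.201). Socs1, an inhibitor induced by interferons, was called higher in conventional mice (3.64 ± 1.02, adjusted p 0.026). It had 36.2 CPM in conventional pregnant mouse 2 and at most 0.612 CPM in the other 4, and its value without mouse 2 was -0.77 (adjusted p 0.571). Lepr, the leptin receptor gene, fell in germ-free mice (-2.26 ± 0.36, adjusted p 0.000134), to 3.93 ± 1.62 CPM in pregnant livers, against 18.7 ± 6.26 CPM in non-pregnant livers. In conventional mice Lepr averaged 4.65 ± 2.03 CPM in pregnant and 7.03 ± 3.61 CPM in non-pregnant livers (-0.60 ± 0.34, adjusted p 0.325), and its interaction did not pass (-1.67 ± 0.48, adjusted p 0.863). The conventional Lepr value was -0.80 without pregnant mouse 2 (adjusted p 0.235, edgeR) and -1.19 without pregnant mice 1 and 2 (adjusted p 0.0767). In conventional mice none of the 21 was called without pregnant mouse 2.

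Among 20 genes for adaptors, coactivators and liver factors that work with these receptors, 2 were called higher in germ-free pregnancy and 1 in conventional pregnancy. For all tested genes the shares called higher were 7.15% and 5.49%. Without conventional pregnant mouse 2, which shares the fit, the germ-free count was 4, and without mice 1 and 2 it was 1. Irs2, a docking protein for insulin and cytokine receptors, averaged 39.3 ± 26.8 CPM in germ-free pregnant and 8.86 ± 6.19 in germ-free non-pregnant livers (2.15 ± 0.48, adjusted p 0.0044). In conventional mice Irs2 averaged 13.6 ± 4.40 CPM in pregnant and 11.9 ± 6.04 CPM in non-pregnant livers (0.19 ± 0.48), and its interaction did not pass (adjusted p 0.863). Onecut1, a liver transcription factor downstream of growth hormone, rose in conventional mice (1.36 ± 0.37, adjusted p 0.02), with 33.3 ± 9.18 CPM in pregnant and 12.9 ± 6.61 CPM in non-pregnant livers. Its value in germ-free mice was 1.09 ± 0.37 (adjusted p 0.0586).

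Of 18 tested genes listed as growth hormone or STAT5 targets in liver, 6 were called higher and 3 lower in germ-free pregnancy, and 5 higher and 3 lower in conventional pregnancy. Shares over all tested genes were 7.15% higher and 3.6% lower in germ-free pregnancy, and 5.49% and 3.52% in conventional pregnancy. The list's median log2 fold change was 0.52 in germ-free and 0.30 in conventional mice. Bcl2l1, which encodes the survival protein BCL-XL, rose by 1.15 ± 0.19 in germ-free mice (adjusted p 0.000192) and by 0.96 ± 0.19 in conventional mice (0.00164). Mup20, a major urinary protein gene with higher expression in males, fell in germ-free mice (-2.94 ± 0.54, adjusted p 0.000651) and in conventional mice (-2.51 ± 0.53, adjusted p 0.00312). Slc10a1, the bile acid uptake carrier NTCP, fell in germ-free mice (-1.08 ± 0.26, adjusted p 0.00769) and in conventional mice (-1.27 ± 0.26, adjusted p 0.00274). Mup genes share near-identical copies, so the level of Mup20 is uncertain. The counts without conventional pregnant mouse 2 were 8 higher and 3 lower in germ-free pregnancy, and 3 higher and 3 lower in conventional pregnancy.

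Genes known for higher expression in female than in male mouse liver were called higher in pregnancy more often than lower. Of 28 tested, 10 were called higher and 2 lower in germ-free pregnancy, and 10 higher and 3 lower in conventional pregnancy. All tested genes leaned the same way, with 7.15% called higher and 3.6% lower in germ-free pregnancy, and 5.49% and 3.52% in conventional pregnancy. Without conventional pregnant mouse 2 the conventional counts were 13 higher and 1 lower, and without mice 1 and 2 they were 11 and 2. Prlr and Cux2 themselves belong to this list, and Prlr is among the called genes in both comparisons. The cytochrome P450 gene Cyp3a16 averaged 386 ± 105 CPM in germ-free pregnant and 3.14 ± 4.03 CPM in germ-free non-pregnant livers (6.92 ± 0.82), and 291 ± 74.2 CPM in conventional pregnant and 13.5 ± 11.5 CPM in conventional non-pregnant livers (4.43 ± 0.73). Cyp2b13, another female-biased P450 gene, went the other way. It fell to 77.3 ± 3.05 CPM in germ-free pregnant, against 214 ± 74.9 CPM in germ-free non-pregnant livers, and to 14.4 ± 5.52 CPM in conventional pregnant, against 179 ± 33.8 CPM in conventional non-pregnant livers. Cyp2b13 was the only gene of this list called between germ-free and conventional pregnant mice (2.43 ± 0.28, adjusted p 0.000188). Cyp3a and Cyp2b genes have near-identical copies and are uncertain individually.

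Of 22 tested male-biased liver genes, 3 were called higher and 5 lower in germ-free pregnancy, and 2 higher and 5 lower in conventional pregnancy. In germ-free pregnancy 7.15% of all tested genes were called higher and 3.6% lower, and in conventional pregnancy 5.49% and 3.52%. Bcl6 belongs to this list and is 1 of the 5 in conventional mice. Nudt7, a peroxisomal coenzyme A hydrolase gene, fell in germ-free (-1.73 ± 0.22) and in conventional mice (-1.91 ± 0.22). Elovl3, a fatty acid elongase gene, also fell in germ-free (-2.79 ± 0.75) and in conventional mice (-3.59 ± 0.71, and -4.65 without pregnant mice 1 and 2). Gstp1, a glutathione transferase gene, rose, by 1.34 ± 0.35 in germ-free and 1.92 ± 0.35 in conventional mice. Its conventional pregnant levels ran from 333 to 3118 CPM, with the highest in mouse 2, and the conventional value without that mouse was 1.31 ± 0.27 (adjusted p 0.00294). Sult5a1, a sulfotransferase gene, was lower in germ-free than in conventional mice, both pregnant (-2.41 ± 0.44, adjusted p 0.0222) and non-pregnant (-2.28 ± 0.39, adjusted p 0.00973), and was the only male-biased gene called there. The list's median log2 fold change with pregnancy was -0.27 in germ-free and -0.17 in conventional mice.

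**Figure D5:**
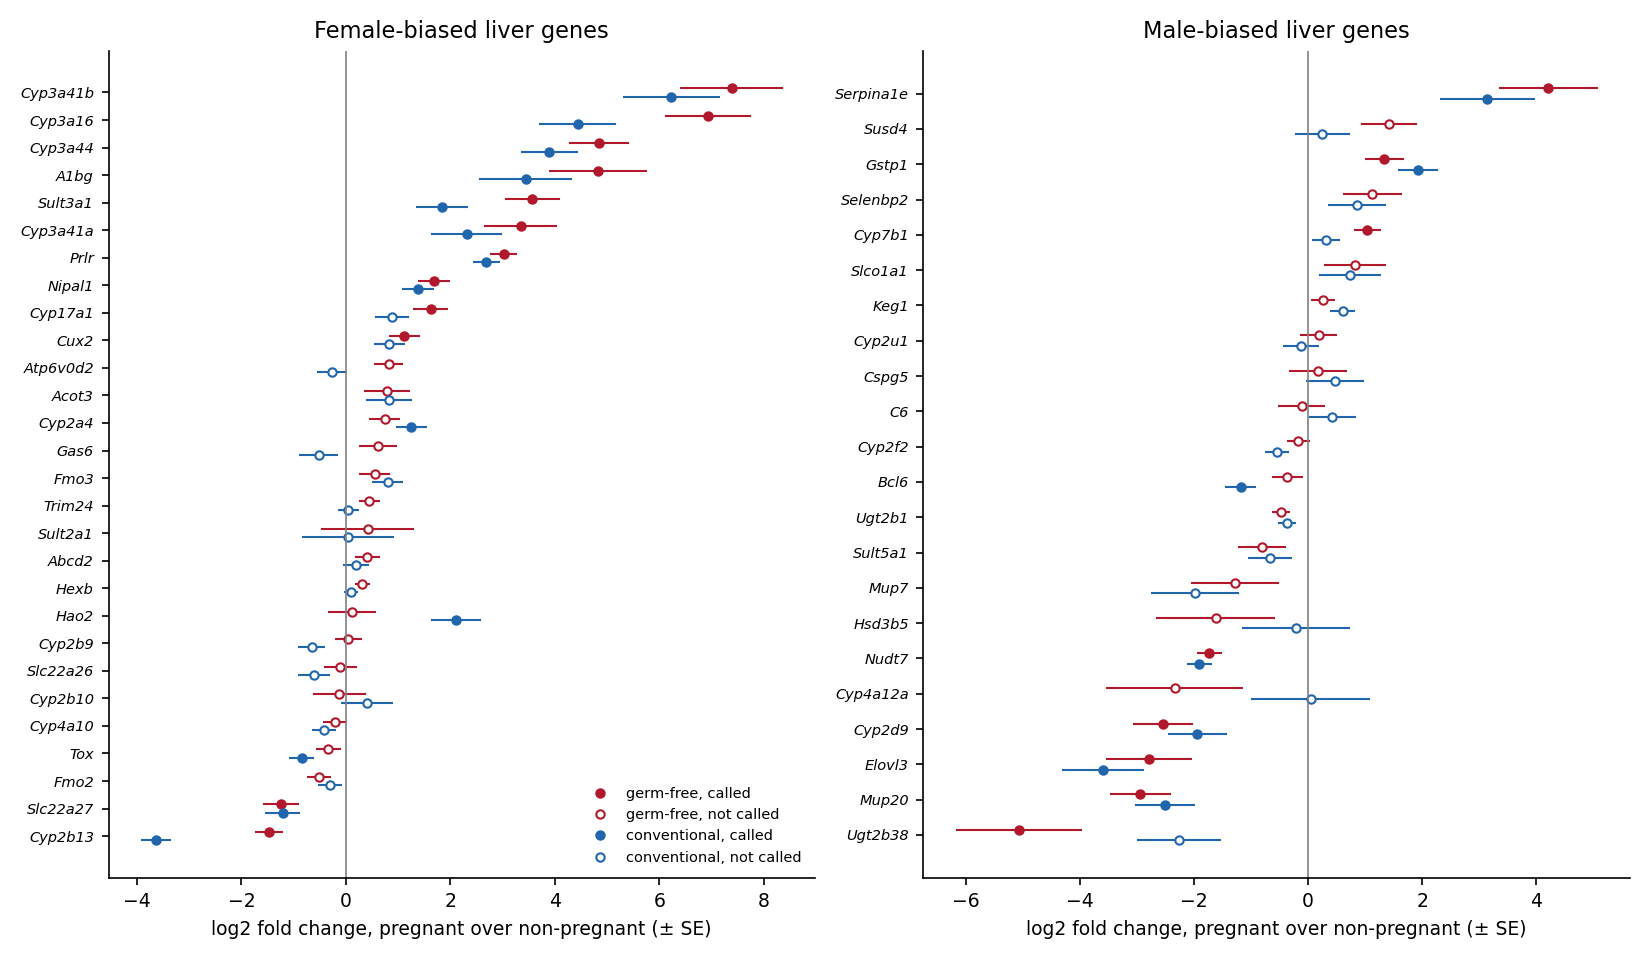
Log2 fold change, pregnant over non-pregnant, of 28 female-biased and 22 male-biased liver genes, ± SE, in germ-free (upper mark) and conventional mice (lower mark), ordered by the germ-free value, with filled marks where the gene was called. Prlr and Cux2 lie among the raised female-biased genes and Bcl6 among the lowered male-biased genes. Cyp2b13 is called lower in the female-biased list and Gstp1 higher in the male-biased list, each with other called genes of its list in the same direction.

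Genes of the STAT3 acute phase response, which also contains Itih4, had 9 of 22 called higher in germ-free and 12 of 22 in conventional pregnancy, and none lower. Among all tested genes 7.15% and 5.49% were called higher. Fgl1, a liver-secreted fibrinogen-like protein, rose by 2.00 ± 0.23 in germ-free and by 1.33 ± 0.23 in conventional mice. Without conventional pregnant mouse 2 the counts were 14 in germ-free and 6 in conventional pregnancy. Saa3, another serum amyloid gene, was called in conventional mice at 5.48 ± 1.08 and missed the threshold without that mouse (0.76, adjusted p 0.208). No gene of this list was called in the comparisons of germ-free with conventional mice. Those comparisons called 0.132% of all genes in pregnant and 0.157% in non-pregnant mice.

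Markers of blood-forming cells also moved with pregnancy. Of 11 tested erythroid markers, 7 were called higher in germ-free pregnancy, against 7.15% of all tested genes, and 2 in conventional pregnancy, against 5.49%. Their summed level ran from 1765 to 3578 CPM in germ-free pregnant and from 244 to 1774 CPM in germ-free non-pregnant livers, and from 373 to 2257 CPM in conventional pregnant and from 454 to 867 CPM in conventional non-pregnant livers. None of the 14 erythroid markers on the list was at 0 in all libraries. Of 9 hepatocyte genes, 5 were called higher and 1 lower in germ-free pregnancy, against 7.15% and 3.6% of all tested genes. In conventional pregnancy 2 of these 9 genes were called higher and 1 lower, against 5.49% and 3.52%. Their sum ran from 134678 to 205740 CPM in germ-free pregnant and from 62144 to 99149 CPM in germ-free non-pregnant livers, and from 75141 to 253536 CPM in conventional pregnant and from 70374 to 94528 CPM in conventional non-pregnant livers. Their part in the changes of the receptor, STAT5 and target genes was not tested. In whole liver RNA, more cells of a type and more RNA per cell cannot be told apart.

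For the markers of other cell types, the shares to compare are 10.8% of all tested genes called in germ-free and 9.02% in conventional pregnancy. Of 10 macrophage markers none was called in germ-free and 1 (Itgam, higher) in conventional pregnancy, and Itgam missed the threshold without conventional pregnant mouse 2 (adjusted p 0.317). None of 3 tested neutrophil or 9 tested T and NK cell markers was called in either. Of 8 B and plasma cell markers, Sdc1, which hepatocytes also express, rose in both, and in conventional mice missed the threshold without pregnant mice 1 and 2 (0.93, adjusted p 0.0716). Of 10 endothelial markers 2 were called higher in germ-free pregnancy and none in conventional pregnancy. Of 10 stellate cell markers, 1 was called lower in germ-free pregnancy, and 1 higher and 2 lower in conventional pregnancy, with Lrat, a retinol esterification enzyme, lower in both. Of the 2 lower in conventional mice, Ecm1 missed the threshold without pregnant mouse 2 (-0.66, adjusted p 0.0865). Of 7 bile duct markers, 3 were called higher and 1 lower in germ-free pregnancy, and 1 lower in conventional pregnancy, with Spp1, which encodes osteopontin, lower in both. The summed level of the 8 bile duct markers on the list reached 191 CPM in germ-free pregnant mouse 2. Its median was 36.1 CPM in germ-free pregnant and 64.9 CPM in germ-free non-pregnant livers.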

How the data were processed

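RNA from 22 whole livers was sequenced from libraries made with a kit that does not mark strand, per the labels' protocols. The deposited table holds estimated counts per gene, which the authors made with Salmon 0.11.3 and the build GRCm38.p6, per the submitters' processing notes, which also name edgeR 3.24.3. The annotation release is not given in the sources used here. Names and coordinates came from GENCODE M21, which matched 99.9% of rows, and promoter sequences from RefSeq.

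Estimated counts were rounded, which changed totals by 0.00829%. Genes passed filterByExpr (minimum count 10, total 15). TMM factors and the quasi-likelihood test of edgeR 4.0.16 (R 4.3.3) gave fold changes and Benjamini-Hochberg adjusted p-values over 15928 genes. The design has 1 term per group and no covariate. Correlations used 100000 permutations (scipy 1.17.1). Library totals of 18064491 to 30036912 limit precision for genes at a few CPM. Alternatives were RLE factors, removal of mitochondrial genes, DESeq2 1.42.0, no filter, only the groups compared, a replicate block, an age covariate, summed Stat5 counts and leaving out mice. The fit was tested on simulated data.

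The 10 genes and the other gene lists were chosen with earlier results of these data known. Genes named from other lists are up to 3 called ones with the smallest adjusted p in each comparison, and the 5 most like each receptor. Saa1, Saa2, Alas2 and Mki67 as library checks, and values by age label, were chosen after seeing the data. Replicates are mice. No same-group pair of libraries was a duplicate within counting noise.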

Additional observations from a re-analysis of the deposited data

Results flagged for a closer look

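In 4 of the 40 combinations of a gene and a group, 1 mouse stood apart from the rest of its group by Dixon's criterion, which chance meets in about 1 of 20 groups. Prlr had 303 CPM in conventional non-pregnant mouse 6, the highest of its 6 mice. Stat5b had 55.7 CPM in conventional pregnant mouse 1 and 51.3 CPM in conventional non-pregnant mouse 6, each the highest of its group. Socs3 had 54.5 CPM in conventional pregnant mouse 2, the mouse with the high acute phase and inflammatory cell markers.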

How the results depend on the processing

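Of 1774 values of single genes under the alternatives, 1706 kept their direction and side of the threshold, 9 lost and 7 gained a call, and 52 changed sign, all of these uncalled. Prlr, Ghr and Cux2 were the members called in germ-free pregnancy under every alternative run, and Prlr, Ghr and Bcl6 were always among those in conventional pregnancy. Numbers of genes called were less stable. Germ-free over conventional pregnant mice gave 35 genes without the filter, 5 with only the groups compared and 108 with DESeq2. Non-pregnant mice gave 117 with DESeq2 (of them 1 of the 10 genes, Bcl6) and 56 without conventional pregnant mice 1 and 2. The interaction gave 2 without the filter, 7 with DESeq2 and 2 without those mice, and conventional pregnancy gave 890 with only the groups compared. Nothing in the labels says that replicate numbers pair the mice. The correlation of same-numbered deviations ran from -0.26 to 0.31 over all comparisons, and from 0.0044 to 0.147 in germ-free pregnancy. Whether the numbers pair mice was not tested. With the replicate block the interaction called 1 gene, the averaged Socs3 value was -0.054 and that of Socs2 0.76 (adjusted p 0.0591, edgeR).

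Without conventional pregnant mice 1 and 2, conventional pregnancy gave Jak2 -0.073, Stat5a -0.44 and Socs3 -0.40. The difference between pregnant groups was then 0.12 for Stat5b and 0.020 for Socs3, the interaction -0.050 for Prlr, 0.16 for Jak2 and 0.10 for Stat5b, and averaged Socs3 -0.51. With Stat5a and Stat5b counts summed, the sum had -0.027 in conventional pregnancy and -0.048 between non-pregnant groups. The cause was not tested.

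Leaving out 1 mouse at a time, genes called ran from 5 to 28 between pregnant groups, 10 to 44 between non-pregnant groups and 0 to 2 for the interaction. Values that changed sign ran as follows on the log2 scale. In germ-free pregnancy Cish ran from -0.34 to 0.11. In conventional pregnancy Stat5a ran from -0.19 to 0.15, Stat5b from -0.29 to 0.092 and Socs3 from -0.39 to 1.43. Between pregnant groups Stat5b ran from -0.27 to 0.075 and Socs3 from -1.79 to 0.024. Between non-pregnant groups Prlr ran from -0.0052 to 0.19, Ghr from -0.078 to 0.045, Stat5b from -0.043 to 0.14, Socs2 from -0.15 to 0.46, Cish from -0.22 to 0.40 and Cux2 from -0.41 to 0.076. In the interaction Jak2 ran from -0.080 to 0.050 and Stat5b from -0.31 to 0.070, and averaged Socs3 from -0.48 to 0.42.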
